A study of Mus musculus with 8 samples.

Results

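The comparison described here is between the dorsomedial nucleus of the hypothalamus (DMH) and the lateral hypothalamus (LH) of the adult mouse. It rests on 4 of the 8 arrays of the series, the arrays named LMD_DMH1 and LMD_DMH2 against LMD_LH1 and LMD_LH2, and no array was chosen by a measured value. The study collected the arcuate (Arc), ventromedial (VMH), dorsomedial and lateral areas by laser microdissection, in which a laser cuts a chosen area out of a tissue section, to find genes particular to each of the 4 areas. Total RNA came from 2 C57BL/6J females (C57BL/6 in the labels) aged 3 mo, was amplified as a whole transcriptome, labelled, and hybridized to 1-color Agilent mouse arrays of 1 slide. All 4 arrays share strain, sex, age and handling, and the groups are set by the area cut out. Which array came from which mouse is not stated in the sources used here, so the p-values below measure only the spread between these samples. The area taken is a piece of tissue with all its neurons, glia, vessels and passing axons, and a lower signal from fewer cells of a type cannot be told apart from one of less RNA per cell.

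The DMH is a compact nucleus beside the third ventricle that is known for its part in circadian output, body temperature, feeding time and sleep. The LH lies lateral to it, is crossed by the fibres of the medial forebrain bundle, and is the home of the neurons that make hypocretin (also called orexin) and melanin-concentrating hormone, peptides of wakefulness, feeding and sleep. Hypothalamic neurons are usually told apart by the peptide precursors, transcription factors and receptors they express. Oligodendrocytes wrap axons in myelin, and fibre-rich areas hold more of them.

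In the values below, the deposited signal intensities of a probe's spots were averaged and set relative to the 75th percentile of the array, which gives a scaled signal in arbitrary units. A probe is called measured on an array when the scanner software marked it as well above background there. Of the probes, 27945 were measured on both arrays of at least 1 of the areas and were tested, and they name 12842 genes, each described by its brightest probe. Spots well above background made up 47.1% (LH2) to 52.7% (DMH1) of each array, and the lowest measured scaled signal lay between 84.5 (LH1) and 141 (LH2).

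The LH arrays resembled each other less than the DMH arrays did. Over the probes tested, the correlation of log2 signals was 0.973 between DMH1 and DMH2 and 0.938 between LH1 and LH2, which is under the 0.953 between DMH2 and LH2. The LH arrays differed by at least 4-fold for 979 probes (3.50%) and the DMH arrays for 127 (0.454%). On LH1, spots with a signal at least 4-fold under the median of the other arrays gathered in the rows over 200 and the columns up to 100 of the 384 rows and 164 columns, where 329 of 5936 bright spots (5.54%) were low, against 10 of 14167 (0.0706%) on the rest of the array. On the other arrays 0.402% to 1.13% of the spots of this block were low, and a small patch of such spots stood out on DMH1 and another on DMH2. The software had marked 364 spots of LH1 as outliers, 292 of them in the block, which holds 29.2% of all spots. Of the probes tested, 8488 (30.4%) have a spot in the block, and without them the correlation between LH1 and LH2 was 0.963, above that between DMH2 and LH2 but still under the 0.976 between DMH1 and DMH2. Outside the block the LH arrays still differed by at least 4-fold for 301 probes (1.55%), against 74 (0.380%) for the DMH arrays. The cause of the low spots was not tested. Results are therefore given with all probes and, as an alternative chosen after seeing the data, without the probes that have a spot in the block.

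**Figure D1:**
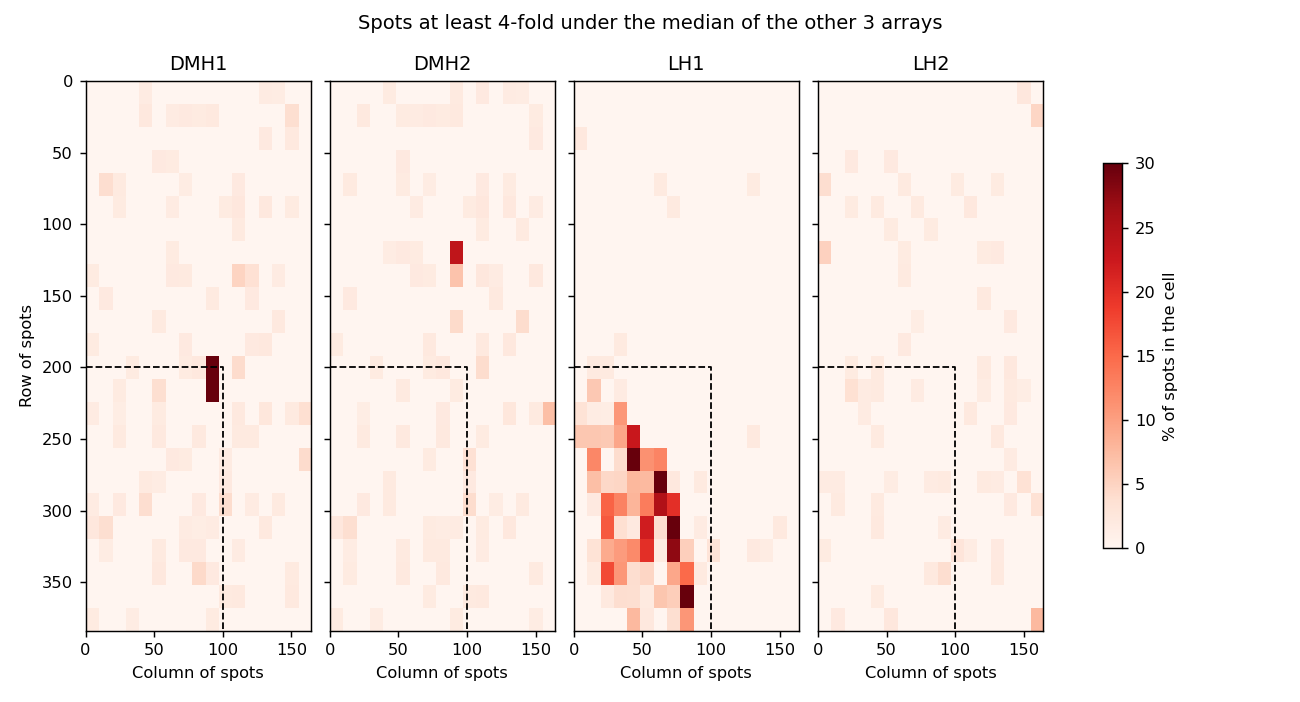
Share of spots (color, percent) with a signal at least 4-fold under the median of the other 3 arrays, by position on each array (row and column of spots), among spots whose probe was bright on the others. The dashed lines mark the rows over 200 and columns up to 100. On LH1 the low spots lie almost all inside this block (5.54% of its spots against 0.0706% of the rest). DMH1 and DMH2 each hold a small patch and otherwise scattered low spots, and those of LH2 are scattered.

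With limma on the 4 arrays, 13 probes (0.0465% of those tested) were higher in the LH at an adjusted p under 0.05 and none (0%) was higher in the DMH, for which the smallest adjusted p was 0.0640. Of the 13, 12 were not measured on either DMH array. A probe measured in 1 area only entered the test through the area where it is high, and its p-value is computed with signals under the measured range, so for such probes, here and below, the p-value is given as a description beside the bound. At an unadjusted p under 0.05 the counts were 1672 (5.98%) and 1325 (4.74%). Without the probes of the block, the same test called 75 probes (0.385%) of 49 genes higher in the LH and 15 probes (0.0771%) of 9 genes higher in the DMH, and 11 of the 75 were also called with all probes. When the spread was estimated from all 8 arrays of the series, 223 probes (0.798%) were higher in the LH and 83 (0.297%) in the DMH. By the size of the change alone, a ratio of mean signals of at least 10, 42 probes (0.15%) were higher in the LH and 8 (0.0286%) in the DMH. Of the 42, 36 were not measured on either DMH array, and none of the 8 was measured on both LH arrays, so most of these ratios are set against signals under the measured range. When a floor at the lowest measured level was set under dim signals, the counts were 9 and 4, and among probes measured on all 4 arrays 6 and 0. More probes were higher in the LH under each of these counts, but the order turned when an LH array was left out, with 314 probes higher in the LH and 794 in the DMH by limma without LH1, and 323 and 915 without LH2, where the 10-fold counts were 55 and 280. The 13 calls of the LH fell to 0 under several alternatives, among them quantile normalization and the replicate block. An exact permutation test of a single gene cannot go below a two-sided p of 0.333 with 2 arrays against 2.

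**Figure D2:**
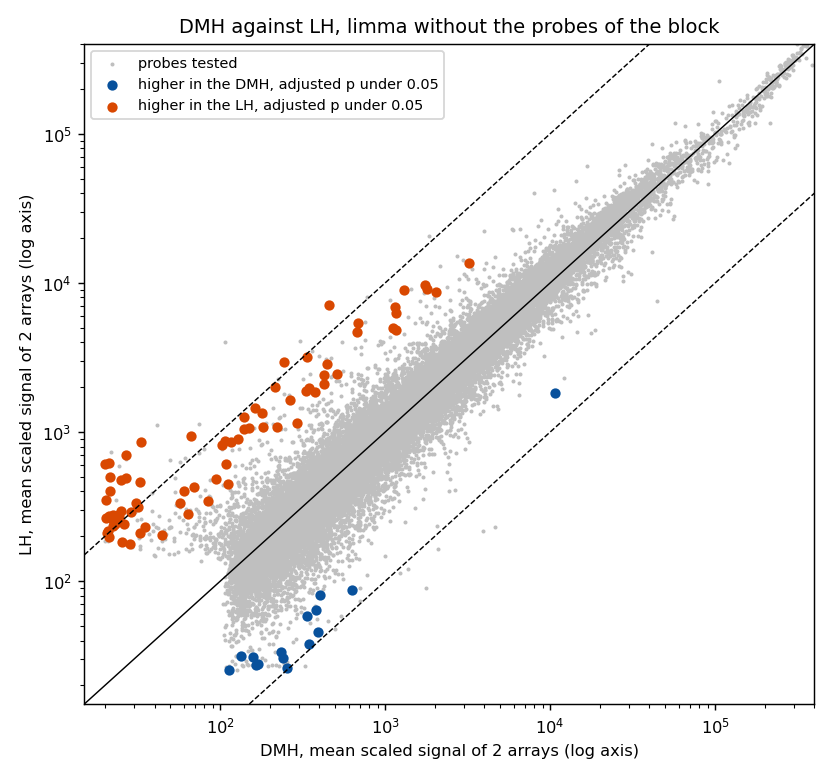
Mean scaled signal of the 2 LH arrays (vertical log axis) against that of the 2 DMH arrays (horizontal log axis) for every probe tested. Colored points passed limma at an adjusted p under 0.05 without the probes of the block, 75 higher in the LH (orange) and 15 higher in the DMH (blue). The solid line marks equal signals and the dashed lines a 10-fold ratio, and all but 1 of the blue points lie at a mean LH signal too low to be measured.

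Among named genes, the largest ratios of mean signals in favour of the DMH were those of the peptide precursor genes *Npvf* and *Grp* and of the transcription regulator gene *Prdm13*. *Npvf*, the precursor of the RFamide-related peptides, which restrain the reproductive axis, had a scaled signal of 4204 and 5102 on the DMH arrays, 433 on LH1, and 30.9 on LH2, where it was not well above background. *Grp*, the precursor of gastrin-releasing peptide, had signals of 2957 and 4849 in the DMH, 401 on LH1 and 35.0 on LH2, again not well above background on the latter. Both genes were far higher on each DMH array than on either LH array, and LH1 stood well above LH2. The ratio of means was 20.05 for *Npvf* and 17.9 for *Grp*, and with that spread limma gave adjusted p-values of 0.309 and 0.311 on 4 arrays and of 0.120 and 0.0752 on 8 arrays, so neither passed. These ratios are not exact, since LH2 gave no measured level, and against LH1 alone the lower DMH array was 9.70-fold higher for *Npvf* and 7.38-fold higher for *Grp*. *Cck*, the precursor of cholecystokinin, a peptide of satiety and anxiety circuits, was measured on all 4 arrays, at 9628 and 11732 in the DMH and 2060 and 1588 in the LH. Its difference of 2.56 ± 0.27 (log2, SE, n = 2 against 2) had an adjusted p of 0.0870 with all probes and of 0.0365 without the probes of the block, the only DMH-higher call of that fit in which the LH arrays gave a measured level. The spread of all 8 arrays gave *Cck* an adjusted p of 0.507.

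**Figure D3:**
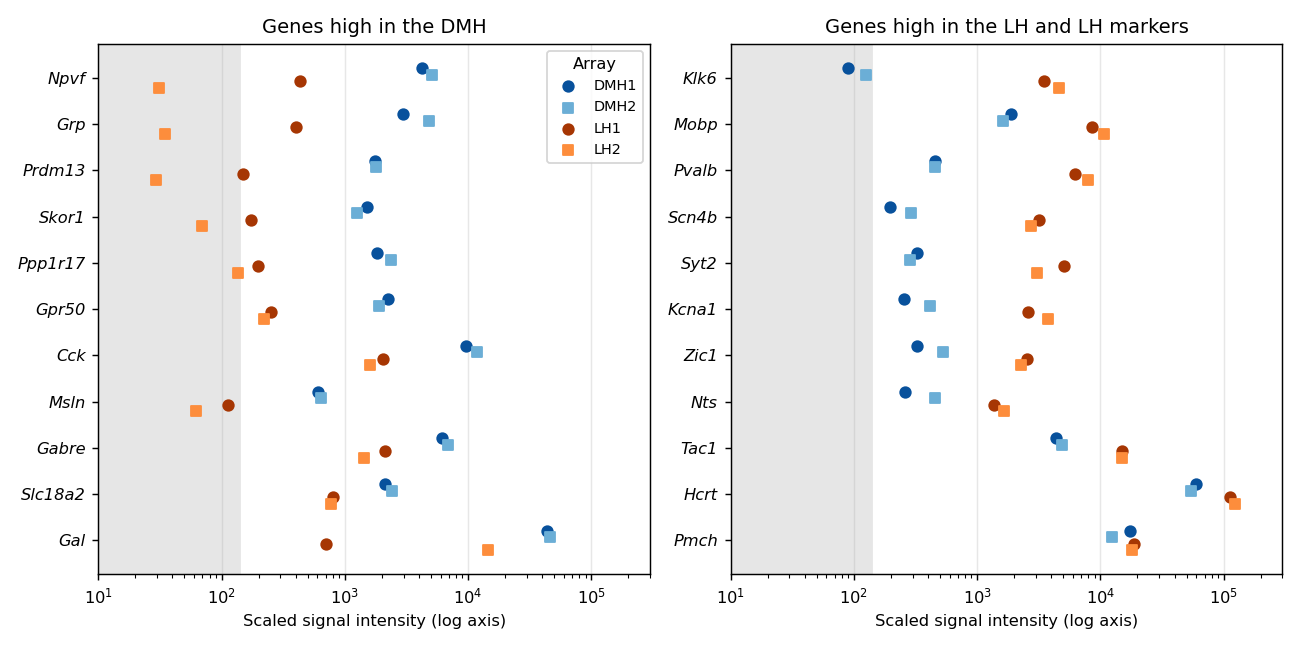
Scaled signal (log axis) on each array of genes high in the DMH (left) and of genes high in the LH or known as markers of the LH (right), with a point per array (blue for the DMH, orange for the LH, circles for replicate 1 and squares for replicate 2). The grey band ends at 141, the highest of the 4 arrays' lowest measured signals. *Npvf*, *Grp*, *Prdm13*, *Skor1* and *Ppp1r17* lie in the band on LH2 but not on LH1, *Gal* is low on LH1 only, and *Hcrt* and *Pmch* are high on all 4 arrays.

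*Prdm13*, a zinc-finger protein of the PR domain family that helps to specify inhibitory neurons of the dorsal spinal cord and cerebellum, had signals of 1771 and 1778 in the DMH against 150 on LH1 and 29.6 on LH2, where it was not well above background. Its DMH arrays agreed within a few units, while the LH arrays lay far below and apart. The ratio of means was 19.8, or 11.8 for the lower DMH array against LH1 alone, with an adjusted p of 0.183 on 4 arrays and 0.0479 with the spread of 8 arrays, and its spot lies in the block of LH1. *Skor1*, a corepressor related to SKI, had 1509 and 1250 in the DMH, 172 on LH1 and 69.0 on LH2 with its brighter probe, a ratio of means of 11.4 (adjusted p 0.122 on 4 arrays and 0.0166 on 8). The other *Skor1* probe had 1279 and 1196 in the DMH, 196 on LH1 and 31.4 on LH2, a ratio of means of 10.9 (adjusted p 0.294 and 0.0640). Neither probe was well above background on LH2, so these ratios are not exact, and against LH1 alone the lower DMH array was 7.25-fold and 6.09-fold higher. *Bsx*, a homeobox factor of hypothalamic feeding neurons, was measured only in the DMH, at 284 and 170, which makes it at least 2.02-fold higher there (adjusted p 0.0908 on 4 arrays, 0.0123 on 8). *Nkx2-1*, a homeobox factor that patterns the ventral hypothalamus, was 2.07-fold higher in the DMH, with 2316 and 1913 against 1037 and 1002, arrays that did not overlap, but did not pass (adjusted p 0.305). Both *Bsx* and *Nkx2-1* have a spot in the block. *Rorb*, a nuclear receptor of the clock and of sensory circuits, was 1.81-fold higher and did not pass either (adjusted p 0.369).

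The promoter of *Prdm13* is printed here for reading beside those of the LH-high genes *Mobp* and *Klk6*. It is the 250 bases before the start of the gene in RefSeq (GRCm38.p6, chr4:21685964-21686213, minus strand, 5′ to 3′), and the capitals mark a match to ACAAAG or ACAATG on either strand (CTTTGT or CATTGT where the match lies on the other strand), letters that SOX factors such as the oligodendrocyte regulator SOX10 are known to bind.
Prdm13: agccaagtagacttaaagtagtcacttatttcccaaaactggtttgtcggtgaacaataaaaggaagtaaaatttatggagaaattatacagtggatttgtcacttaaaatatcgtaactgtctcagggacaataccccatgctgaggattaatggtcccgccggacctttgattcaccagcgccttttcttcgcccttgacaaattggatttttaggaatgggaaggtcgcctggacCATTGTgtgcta
It holds 1 match to these letters and none to CACTTG or CAAGTG, letters of NKX2 factors, which says only that these letters are not in this window. Longer windows and other forms of the NKX2 letters were not searched. Of the 14 DMH markers tested, 11 matched the table of promoters, and 2 of the 11 genes (18.2%) have a promoter with the SOX letters, against 21.2% of the 10254 genes tested that have a promoter there.

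Several receptor genes were higher in the DMH, none of which passed on 4 arrays. *Gpr50*, a melatonin-receptor relative that does not bind melatonin and is known from the DMH and from tanycytes, had signals of 2236 and 1891 in the DMH and of 250 and 220 in the LH. It was measured on all 4 arrays, the arrays of each area lay close together, and no DMH value came near an LH value. Its spot lies in the block of LH1, so it has no value in the fit without those probes. The difference was 3.13 ± 0.24 (log2, SE, n = 2 against 2), an 8.78-fold ratio, with an adjusted p of 0.0649 on 4 arrays and 0.00545 on 8. *Gpr50* stands in the list of tanycyte markers too, but the other 8 members tested were divided, with *Dio2*, the deiodinase of tanycytes, at 223 and 183 in the DMH and 760 and 552 in the LH (adjusted p 0.195 on 4 arrays, 0.0491 on 8). *Prlhr*, the receptor of prolactin-releasing peptide, had 456 and 573 in the DMH against 140 and 133 in the LH, of which only 1 was well above background (ratio of means 3.77, adjusted p 0.117 on 4 arrays, 0.0347 on 8). *Npbwr1*, a receptor of neuropeptides B and W, had 862 and 870 against 372 and 253 (ratio 2.77, adjusted p 0.239 and 0.0488). The receptor genes *Glp1r*, for glucagon-like peptide, *Oxtr*, for oxytocin, and *Calcr*, for calcitonin, were 2.41-fold, 2.18-fold and 2.15-fold higher in the DMH with areas that did not overlap, and none passed on 4 or 8 arrays. The spot of *Oxtr* lies in the block too.

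Of 45 receptor genes of peptides and hormones tested, none was called on 4 arrays, and on 8 arrays 3 were higher in the DMH (*Gpr50*, *Prlhr* and *Npbwr1*) and 1 in the LH (*Crhr2*, a receptor of the urocortins, at 377 and 449 in the DMH and 1013 and 1264 in the LH, adjusted p 0.0358). Over all genes tested the spread of 8 arrays called 0.28% higher in the DMH and 1.15% in the LH. Both DMH arrays lay above both LH arrays for 19 of the receptors and below them for 11, against 16.1% and 33.4% of all genes tested, and the median difference was 0.20 (log2, DMH minus LH) against −0.11 over all genes. This median was 0.02 with only probes measured on all 4 arrays, 0.12 with normexp and 0.53 without scaling, and ran from 0.13 to 0.32 with an array left out. *Hcrtr1*, a receptor of hypocretin, was on the LH side, at 601 and 927 against 1960 and 1801 (adjusted p 0.302). *Sstr1*, a somatostatin receptor, had 1010 and 1423 in the DMH and 1316 on LH2 but 26.1 on LH1, where its spot lies in the block.

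Further genes high in the DMH came from other functions. *Ppp1r17*, an inhibitor of protein phosphatases, had 1821 and 2386 in the DMH, 196 on LH1 and 135 on LH2, where it was not well above background, a ratio of 12.7 (adjusted p 0.0675 on 4 arrays and 0.00525 on 8). Its spot lies in the block of LH1. *Slc18a2*, the vesicular monoamine transporter, had 2114 and 2426 against 796 and 778 (ratio 2.88, adjusted p 0.164 and 0.0347), and *Hdc*, which makes histamine, had 3348 and 4146 against 1474 and 1166 (ratio 2.84, adjusted p 0.209 and 0.189). For each of the 3 genes the areas did not overlap, and the arrays of an area lay within a narrow range. *Gabre*, the epsilon subunit of GABA-A receptors, had 6181 and 6839 in the DMH against 2107 and 1428 (ratio 3.68, adjusted p 0.163 and 0.0326). *Tekt1*, a protein of ciliary microtubules, and *Clic6*, a chloride channel protein, were 4.80-fold and 4.05-fold higher in the DMH, with adjusted p-values on 8 arrays of 0.0202 and 0.0261. Another *Tekt1* probe was 3.18-fold higher (adjusted p 0.0499 on 8 arrays). The spots of both *Tekt1* probes and of *Clic6* lie in the block of LH1. *Sulf1*, a sulfatase of heparan sulfate, had 912 and 907 against 275 and 297 (ratio 3.18, adjusted p 0.125 and 0.0618).

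Many DMH calls were of dim genes measured only in the DMH. On 8 arrays these were 49 of the 83 probes called. Of the 15 probes higher in the DMH without the probes of the block, 14 were not well above background on either LH array, so only a lower bound of their ratio is known. *Msln*, the mesothelin precursor, had 611 and 642 in the DMH and was at least 4.99-fold higher there (adjusted p 0.0444 in that fit), and the keratin gene *Krt90*, at 382 and 407, was at least 3.61-fold higher (adjusted p 0.0417). *Tafa4*, a secreted chemokine-like protein of sensory and hypothalamic neurons, had 337 and 355 and was at least 3.17-fold higher (adjusted p 0.0231). Further genes measured only in the DMH had bounds of the same size but did not pass on 4 or 8 arrays. *Egr2*, an early growth response factor, had 708 and 192 (at least 3.37-fold), and *Scube2*, a secreted protein, had 937 and 138 (at least 3.29-fold), so that the DMH arrays of both were far apart. *Intu*, a gene of cilium formation, had 454 and 295 (at least 3.35-fold), *Zap70*, a kinase of lymphocytes, had 390 and 327 (at least 3.27-fold), and *Rnu12*, a small nuclear RNA, had 392 and 303 (at least 3.16-fold). The other named calls without the probes of the block were *Cntnap3*, *Zhx2*, *Krt31*, *Dbpht2* and *Glyctk*, at bounds between 1.43-fold and 2.28-fold.

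Taken as a list of 14 tested genes known from the DMH, the DMH markers lay on the DMH side without exception in sign, with a median difference of 2.45 (log2) and a range from 0.28 (*Trh*, thyrotropin-releasing hormone) to 5.32 (*Npvf*). The upper end is not exact, since *Npvf* was not well above background on LH2. The size of the median moved with the processing. It was 1.67 with normexp background correction, 0.97 with only probes measured on all 4 arrays, as the brightest probes of 7 of the 14 were, and 3.09 without LH1. Both DMH arrays were above both LH arrays for 13 of them and at least 2-fold above for 7, against 16.1% and 0.732% of all genes tested. Of the 14, none passed on 4 arrays, 4 passed on 8 arrays (*Gpr50*, *Ppp1r17*, *Skor1* and *Prdm13*, against 0.28% of all genes), and 1 of 10 (*Cck*) passed without the probes of the block, against 0.0935% of all genes in that fit. LH1 had a higher signal than LH2 for 13 of the 14. The list was drawn up with earlier results of these arrays known and is no independent evidence of its direction.

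On the LH side, the list with the largest median difference of the 20 described was that of oligodendrocytes and myelin. Of 37 genes of this list tested, both LH arrays were above both DMH arrays for 36 and at least 2-fold above for 32, against 33.4% and 2% of all genes tested, and the median gene was 5.09-fold higher in the LH. Limma called 1 of them higher in the LH on 4 arrays (*Klk6*, against 0.0467% of all genes), 10 of the 23 that remained without the probes of the block (43.5%, against 0.468% of all genes in that fit), and 25 of 37 with the spread of 8 arrays (against 1.15%). None was called higher in the DMH in any of these fits. The summed signal of the list was 89169 and 94706 on the DMH arrays and 322520 and 369800 on the LH arrays. Since the list was chosen with these results known, the counts describe it and test nothing.

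*Klk6*, a secreted protease of mature oligodendrocytes, had 3462 and 4626 in the LH, and its DMH signals of 89.1 and 124 were not well above background. The ratio is therefore at least 35.8-fold in favour of the LH (adjusted p 0.0466 on 4 arrays, 0.0123 on 8), and its spot lies in the block, where LH1 nevertheless read high. *Mobp*, an abundant protein of compact myelin, had 1897 and 1609 in the DMH and 8579 and 10710 in the LH with its brightest probe, a difference of −2.46 ± 0.26 (log2, SE, n = 2 against 2) with an adjusted p of 0.0870 on 4 arrays and 0.0365 without the probes of the block. Another *Mobp* probe was measured only in the LH, at 835 and 646, and was at least 7.30-fold higher there (adjusted p 0.0466). Both genes were high on both LH arrays and low on both DMH arrays.

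The promoters of *Mobp* and *Klk6* are shown because each gene has a probe, measured only in the LH, that was called on 4 arrays, and because both LH arrays were higher for nearly all genes of the list. Each is the 250 bases before the start in RefSeq (GRCm38.p6, plus strand, chr9:120149492-120149741 for *Mobp* and chr7:43824294-43824543 for *Klk6*, of whose 2 starts the first is shown), with the same SOX letters in capitals.
Mobp: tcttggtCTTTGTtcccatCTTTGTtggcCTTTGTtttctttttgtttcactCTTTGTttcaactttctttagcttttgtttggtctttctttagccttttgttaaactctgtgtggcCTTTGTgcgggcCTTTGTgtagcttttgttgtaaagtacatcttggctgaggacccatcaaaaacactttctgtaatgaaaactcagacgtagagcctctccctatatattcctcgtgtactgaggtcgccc
Klk6: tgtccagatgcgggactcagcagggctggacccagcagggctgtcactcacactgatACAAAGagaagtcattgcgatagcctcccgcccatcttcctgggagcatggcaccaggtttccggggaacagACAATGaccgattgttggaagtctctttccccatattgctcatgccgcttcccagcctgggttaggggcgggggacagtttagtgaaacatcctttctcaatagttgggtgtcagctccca
*Mobp* holds 6 matches, all as CTTTGT, and *Klk6* holds 1 of each kind. Of the 37 genes, 24 matched the table, and 11 of the 24 (45.8%) have a promoter with the SOX letters, against 21.2% of the 10254 genes tested with a promoter. The share was 28.2% of all 27025 genes of the table, and 26.7% of 15 for the fast-spiking neuron list described below. Per promoter the shares were 38.2% of 34 for the myelin list, 18.2% of 13187 for the genes tested, and 25.2% of the 32851 promoters of the table. For the NKX2 letters CACTTG, on either strand, the shares were 11.8% of the promoters of the myelin list and 9.58% of those of the genes tested, and no match overlapped another. A match in this window is a string of letters and not a site shown to be bound.

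The other members included regulators and structural proteins. *Sox10* and *Myrf*, transcription factors of oligodendrocyte identity and of myelination, had differences of −1.98 ± 0.25 and −2.31 ± 0.26 (log2, SE), with adjusted p-values on 8 arrays of 0.0205 and 0.0329. The myelin proteins *Mag* (7119 and 8759 in the DMH, 39563 and 40951 in the LH), *Mog* (1709 and 2597, 10056 and 15875) and *Cldn11* (1613 and 1987, 8168 and 10183) passed with the spread of 8 arrays at 0.0331, 0.0359 and 0.0347. In each of them the lowest LH array lay well above the highest DMH array. The abundant *Mbp* (12799 and 9376 against 30821 and 31543) differed less, by −1.51 ± 0.27, and did not pass on 4 or 8 arrays. *Tmem125*, *Insc*, *Anln* and *Enpp6* were measured only in the LH, like *Klk6*, and the smallest differences were those of *Nfasc* (−0.41), which neurons express too, and *Nkx6-2* (0.03).

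**Figure D4:**
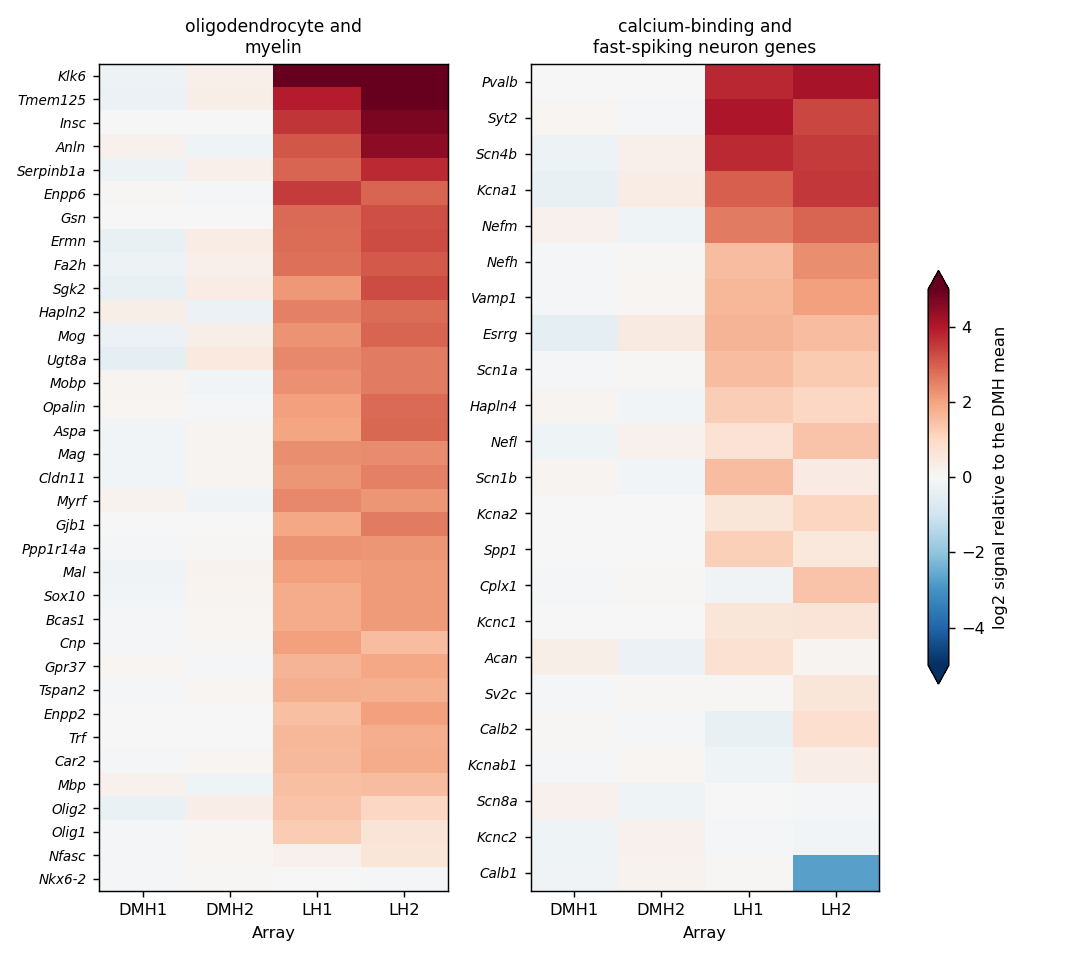
Signal of genes of the oligodendrocyte and myelin list (left) and of the list of calcium-binding and fast-spiking neuron genes (right) on each array, as the log2 difference from the mean of the DMH arrays (color, scale ends at 5), ordered by the difference between areas. All myelin genes drawn but *Nkx6-2* are higher on both LH arrays, while the neuronal list runs from *Pvalb* (−3.94, DMH minus LH) to *Calb1*, which is low on LH2 only.

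The precursors of this lineage moved little. Of 8 genes of oligodendrocyte precursor cells tested, such as *Pdgfra* and *Cspg4*, none passed on 4 or 8 arrays. Over all genes, 0.0467% and 1.15% were called higher in the LH in these fits. The median difference was −0.45 with a range from −0.86 to −0.20. Both LH arrays were above both DMH arrays for 7 of the 8, against 33.4% of all genes.

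Genes of fast-spiking neurons were the second group on the LH side. *Pvalb*, which encodes the calcium buffer parvalbumin, had 459 and 458 in the DMH and 6242 and 7886 in the LH, a difference of −3.94 ± 0.25 (log2, SE, n = 2 against 2) and a ratio of 15.4, and was the only probe of the 13 called on 4 arrays that was measured on all of them (adjusted p 0.0466). Its other probe was measured only in the LH, at 640 and 581, and was at least 6.06-fold higher (adjusted p 0.0466, and 0.00144 on 8 arrays), while the brighter probe missed the threshold on 8 arrays (0.0630). *Scn4b*, a sodium channel subunit that speeds repetitive firing, had 198 and 288 against 3161 and 2728, a ratio of 12.1 (adjusted p 0.0649 on 4 arrays, 0.0210 without the probes of the block, 0.0130 on 8). For both genes the LH arrays stood together about an order of magnitude above the DMH arrays.

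*Syt2*, the fast calcium sensor of release, had 324 and 287 in the DMH against 5065 and 3060 (ratio 13.3, adjusted p 0.0732 and, on 8 arrays, 0.0123). *Kcna1*, a low-threshold potassium channel of axons, had 253 and 414 against 2597 and 3750 (adjusted p 0.0913, 0.0365 without the probes of the block, 0.0401 on 8). The neurofilament genes *Nefm* and *Nefh* of thick axons and the vesicle protein gene *Vamp1* passed on 8 arrays at 0.0166, 0.0358 and 0.0202, with differences of −2.75 ± 0.28, −1.95 ± 0.34 and −1.86 ± 0.26 (log2, SE). With all probes, no member of the list was higher on both DMH arrays by its brightest probe, and without the probes of the block 1 of 17 was. Of the 24 tested, 17 were higher on both LH arrays and 10 at least 2-fold so, against 33.4% and 2% of all genes, and the median difference was −1.02. Of the 24, 1 passed on 4 arrays (against 0.0467% of all genes) and 7 on 8 arrays (1.15%), and without the probes of the block 3 of 17 passed (0.468%). The calcium buffers were not alike: *Calb2* (calretinin) differed by −0.22 and *Calb1* (calbindin) was near equal on 3 arrays and not well above background on LH2. Myelin genes moved with these genes, by 5.09-fold at the median, and their part in the result was not tested.

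Parvalbumin is also a marker of the neighbouring zona incerta and thalamic reticular nucleus. A list of 10 tested markers of the zona incerta and thalamus had a median difference of 0.01. Its only member called on 4 arrays was *Pvalb*, against 0.0467% of all genes higher in the LH. By the brightest probe none was called on 8 arrays, against 1.15% of all genes higher in the LH and 0.28% in the DMH. *Lhx6*, a homeobox factor of zona incerta and other inhibitory neurons, had 22509 and 37181 in the DMH against 34418 and 17222 in the LH, overlapping. A share of tissue from there in the LH pieces was not tested beyond these values.

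Other LH calls were spread over many functions. Among those measured only in the LH with all probes, *Prr5l*, a partner of the kinase complex mTORC2, had 516 and 722 (at least 6.07-fold), *Ninj2*, an adhesion protein of glia, had 566 and 843 (at least 6.86-fold), and *Gabrr2*, a rho subunit of GABA receptors, had 279 and 255 (at least 2.65-fold), each at an adjusted p of 0.0466. The remaining calls were *Nkx2-9* and *Esrrb*, transcription factors at bounds of 2.71-fold and 2.76-fold, a probe whose accession has no symbol here, and 3 probes named only by a chromosome position. Among the largest bounds of probes not called on 4 arrays with all probes were those of *Rab37*, a small GTPase (1054 and 843, at least 9.37-fold), *Tnfaip6*, a hyaluronan-binding protein (778 and 757, at least 7.63-fold), and the noncoding *A230001M10Rik* (469 and 833, at least 6.21-fold), with adjusted p-values on 8 arrays of 0.0139, 0.0260 and 0.0227. *Adamtsl4*, a protein of the extracellular matrix, was measured on all 4 arrays, at 136 and 190 against 1433 and 1447 (adjusted p 0.0688 on 4 arrays, 0.0347 on 8), as was *Gsn* (gelsolin, an actin-severing protein in the myelin list), at 385 and 404 against 2789 and 3680 (0.0688 and 0.0587). Of the 75 LH calls without the probes of the block, 38 were not measured on either DMH array. Genes measured on all 4 arrays in that fit included *S1pr5*, a lipid receptor of oligodendrocytes (459 and 432 against 3196 and 2536, adjusted p 0.0319), *P2rx5*, a purine receptor channel (176 and 181 against 1146 and 1526, 0.0277), *Itgb4*, an integrin (252 and 181 against 2061 and 1945, 0.0231), and *Neat1*, a nuclear noncoding RNA (1189 and 1047 against 5212 and 4835, 0.0417). In all 4 of them the arrays of an area lay much nearer to each other than to the other area.

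Transcription factors of hypothalamic regions went both ways. Of 38 tested, none passed on 4 arrays, 3 were higher in the DMH on 8 arrays (*Prdm13*, *Skor1* and *Bsx*) and 2 in the LH (*Foxa1* and *Zic1*). The median difference was 0.04, which turned to −0.055 with quantile normalization and to −0.018 with normexp. With an array left out it ran from −0.27 (without LH2) to 0.10 (without LH1). *Zic1*, a zinc-finger factor of septal and diencephalic neurons, had 326 and 531 in the DMH and 2517 and 2275 in the LH (difference −2.52 ± 0.32, adjusted p 0.112 on 4 arrays, 0.0497 without the probes of the block, 0.0166 on 8). *Foxa1*, a forkhead factor of the ventral midbrain and posterior hypothalamus, was dim, measured only in the LH at 208 and 165, and at least 1.84-fold higher (adjusted p 0.0649 and 0.00512). *Onecut2* and *Meis1* were on the LH side at −2.10 ± 0.29 and −2.07 ± 0.46 and did not pass (adjusted p 0.125 and 0.294 on 4 arrays). Both DMH arrays were above both LH arrays for 13 of the 38 and below for 14, against 16.1% and 33.4% of all genes, and the spread of 8 arrays called 0.28% and 1.15% of all genes.

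Of the 12 markers of the LH tested, none passed on 4 arrays. *Hcrt*, the hypocretin precursor, had 59641 and 54676 in the DMH and 112980 and 124470 in the LH, a ratio of 2.08 (difference −1.05 ± 0.23, adjusted p 0.294 on 4 arrays and 0.277 on 8). *Pmch*, the precursor of melanin-concentrating hormone, had 17328 and 12401 against 18818 and 18130 (difference −0.33 ± 0.27, adjusted p 0.644). Both were thus high on the arrays labelled DMH, where *Hcrt* lay far above the 201 to 730 of the 4 Arc and VMH arrays, and *Pmch* above their range of 75.8 to 4199. The defining marker of the LH was therefore present in the DMH pieces at 0.481 of its mean signal in the LH, and which cells it came from was not tested.

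*Tac1*, the precursor of substance P, had 4397 and 4910 in the DMH and 14931 and 14868 in the LH (difference −1.68 ± 0.23, adjusted p 0.126 on 4 arrays, 0.0331 on 8), the only one of the 12 LH markers to pass in either fit. On 8 arrays 1.15% of all genes were called higher in the LH and 0.28% in the DMH. *Nts*, the neurotensin precursor of LH neurons, had 262 and 455 against 1377 and 1644, a ratio of 4.21 that did not pass (adjusted p 0.183 and 0.130). *Pdyn* (dynorphin) went the other way, at 3236 and 2760 in the DMH against 1821 and 1329 (adjusted p 0.401). *Gal*, described below, and *Hdc*, described above, are members of this list too and lay on the DMH side. *Cartpt*, which encodes another feeding peptide, had 16318 and 15534 against 20565 and 29764 (adjusted p 0.497). Over the 12, both LH arrays were above for 7 and both DMH arrays for 3, against 33.4% and 16.1% of all genes. They were at least 2-fold above for 2 and 2, against 2% and 0.732%. The median difference was −0.51, and the range ran from −2.12 to 3.81. The median was −0.25 without LH1 and −0.19 without scaling.

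The highest difference among the LH markers, that of the galanin gene *Gal*, rests on 1 array. *Gal* had 43360 and 45868 in the DMH, 14447 on LH2 and 699 on LH1, where its spot lies in the block, and the adjusted p was 0.456. Against LH2 alone the DMH arrays were still at least 3.00-fold higher. *Copg2* and *Hpf1*, which serve vesicle coats and DNA repair in all cells and were chosen after their values were seen, were low on LH1 too but, unlike *Gal*, near level on the other arrays, at 12080, 11139 and 10764 against 210 on LH1 for *Copg2*, and 9806, 9738 and 10306 against 448 on LH1 for *Hpf1*.

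Across 34 peptide precursors tested, none passed on 4 arrays and *Tac1* alone on 8 arrays. The spread of 8 arrays called 1.15% of all genes higher in the LH and 0.28% in the DMH. Both DMH arrays were above for 8 and both LH arrays for 13, against 16.1% and 33.4% of all genes. The median difference was −0.20, which turned to 0.12 without scaling and to 0.06 without LH2. Beside *Npvf*, *Grp*, *Cck* and *Gal*, the DMH side held *Ghrh*, the growth hormone-releasing hormone precursor (2028 and 3486 against 831 and 1245, adjusted p 0.379), and *Npw*, the precursor of neuropeptide W (401 and 1180 against 205 and 174, adjusted p 0.401). On the LH side *Crh*, the corticotropin-releasing hormone precursor, had 2160 and 2712 against 5257 and 3863 (adjusted p 0.424). *Penk* (enkephalin), *Tac2* (neurokinin B), *Adcyap1* (PACAP) and *Agrp* (agouti-related peptide) each differed by only 0.09 to 0.17 (log2). *Avp*, the vasopressin precursor, had 182 and 236 in the DMH and 297 on LH1 but 2593 on LH2, and its difference rested on LH2.

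The genes of glutamate and GABA transmission described here differed little. *Slc17a6*, the vesicular glutamate transporter of the hypothalamus, had 3487 and 5415 in the DMH and 5438 and 4171 in the LH, a difference of −0.13 ± 0.33 (log2, SE). *Gad1*, *Gad2* and *Slc32a1*, which make and load GABA, differed by −0.27 ± 0.24, −0.36 ± 0.25 and −0.27 ± 0.30. None of the 4 passed, and *Slc17a6* overlapped between areas. *Slc18a3*, the vesicular acetylcholine transporter, was measured only in the LH, at 354 and 839, at least 4.44-fold higher, and did not pass (adjusted p 0.291 on 4 arrays, 0.0773 on 8). Of 11 genes of transmitter identity tested, *Slc18a2* alone passed, on 8 arrays (0.28% of all genes higher in the DMH, 1.15% in the LH).

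Markers of other cell types moved less than those of oligodendrocytes. The medians were −0.29 for 17 astrocyte genes, −0.67 for 14 microglial genes, −0.57 for 14 endothelial and mural genes, −0.17 for 5 leptomeningeal genes, −0.15 for 9 ependymal and tanycyte genes, and −0.27 for 10 neuronal genes, and 13 housekeeping genes had −0.28. In these lists none passed on 4 arrays, and on 8 arrays *Gpr50* and *Dio2* alone, both of the tanycyte list. Over all genes, 4 arrays called 0% higher in the DMH and 0.0467% in the LH, and 8 arrays 0.28% and 1.15%. The summed signal was 202060 and 199480 in the DMH against 200460 and 150130 in the LH for microglia, and 190000 and 182850 against 241180 and 249540 for astrocytes. Of the neighbouring areas, 7 Arc genes had a median of −0.04, 3 VMH genes had one of 0.47 with all 3 higher in the DMH by their mean (0.26 without DMH1, 0.28 without LH2 and 0.81 without LH1), and 3 genes of the paraventricular and supraoptic nuclei had one of −0.90, with *Avp* the lowest, and none of them passed on 4 or 8 arrays. *Agrp*, the defining Arc gene, had 423 to 619 on the 4 arrays against 56529 and 50303 in the Arc, and *Nr5a1*, that of the VMH, had 225 to 733 against 12967 and 12467 in the VMH.

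**Figure D5:**
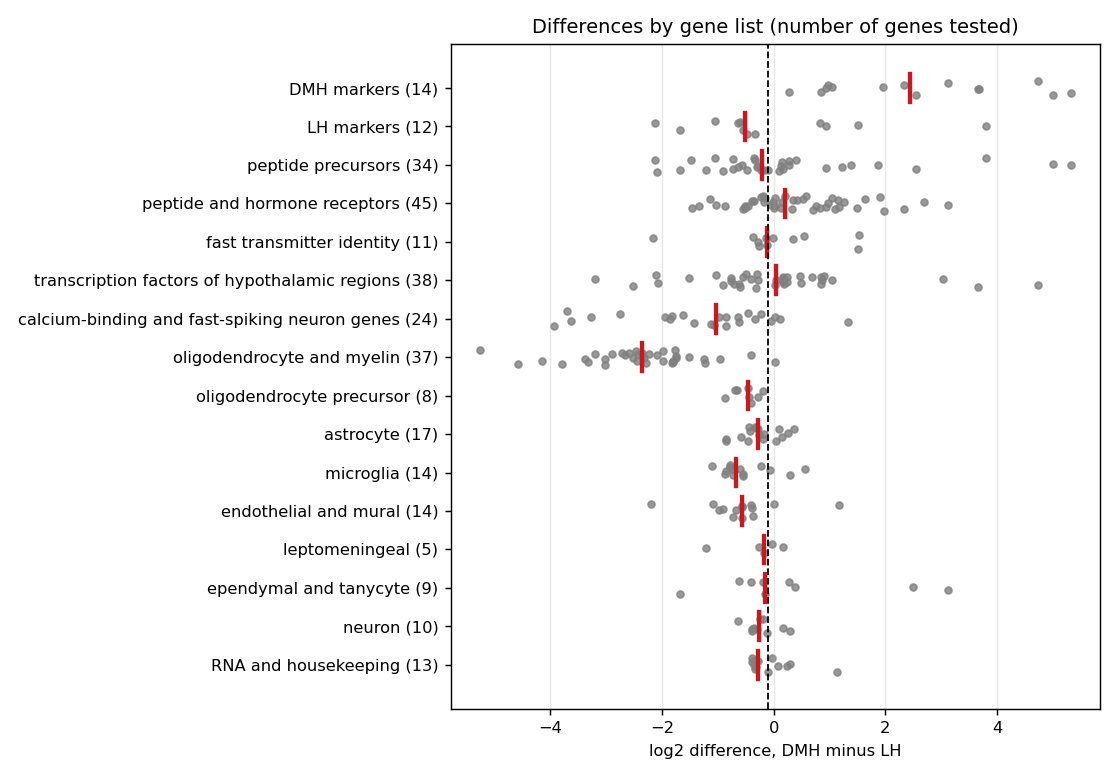
Difference between the areas (log2, DMH minus LH) for every gene tested of 16 lists, a grey point per gene and a red bar for the median of the list, with the number of genes in brackets. The dashed line marks the median of all genes tested (−0.11). The DMH markers lie to the right (median 2.45), the oligodendrocyte and myelin genes to the left (−2.35), followed by the fast-spiking neuron genes (−1.02), and the other medians lie between −0.67 and 0.20.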

How the data were processed

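The 4 arrays of the DMH and LH were grouped by their labels. The authors extracted spot intensities with Agilent Feature Extraction, 11.5.1.1 in the submitters' processing notes. The file headers name version 10.7.3.1. The values deposited are linear intensities, background-subtracted and not scaled between arrays, and the red channel was used (the labels give Cy3, the methods Cy5).

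Control and outlier spots were left out, repeated spots were averaged per probe, and signals were scaled to the 75th percentile of their array. Log2 values were fitted with limma 3.58.1 in R 4.3.3 (a mean per area, 2 residual and 2.90 prior degrees of freedom), with Benjamini-Hochberg adjustment over the 27945 probes tested and a threshold of 0.05. The fit of all 8 arrays has 4 residual degrees of freedom. A probe not measured in an area gives a bound, computed against, on each array, the higher of its lowest measured signal and the probe's own signal. Array number and signal over background limit the precision. Of 28390 probes with a RefSeq accession, 26762 were named through GRCm38.p6, and 11144 probes tested have no symbol. Values missing on 1 array (97 probes) were left missing. The limma fit of the 4 arrays was tested on simulated data.

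Named genes were chosen in each direction. Among probes with a gene symbol, the 8 with the largest gap were taken from those measured on all 4 arrays. The 8 with the largest bound were taken from those with a symbol measured in 1 area only. Up to 10 probes past the limma threshold and members of the lists were added. Members and lists were chosen with earlier results of these data known. Genes named only from the calls without the probes of the block were chosen after their values were seen. Array row 1 of the slide held replicate 1 and row 2 replicate 2. Some genes of the lists are counted with them but not reported here by name.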

Additional observations from a re-analysis of the deposited data

How the results depend on the processing

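The counts of calls moved widely with the settings, and dim probes give only bounds. The 13 probes higher in the LH became 0 without scaling, with quantile normalization, with the deposited table, with dim signals raised to a floor, without the filter on dim probes and with the replicate block, 20 with normexp, 59 with a filter on all 4 arrays, 108 with trended and robust moderation, 223 with 8 arrays, 75 and 230 without the probes of the block (4 and 8 arrays), and 0 to 323 when an array was left out (314 without LH1, 323 without LH2). An unpaired Student's t-test on the same log2 values gave 1784 unadjusted and 0 after Benjamini-Hochberg. For the DMH the count of 0 became 3 with normexp, 3 with the filter on all 4 arrays, 8 with trended and robust moderation, 83 with 8 arrays, 15 and 81 without the probes of the block, and 0 to 915 when an array was left out (794 without LH1, 915 without LH2), and the t-test gave 892 unadjusted and 0 adjusted. A fit with an array left out assumes that the lone array varies like the pair of the other area.

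By a ratio of at least 10, the 8 probes of the DMH became 20 without scaling, 1 with normexp, 4 with dim signals raised, 38 without the filter, 0 with the filter on all 4 arrays, 30 by the geometric mean, 63 at 5-fold, 1 at 20-fold, 1 with every array, 4 without the probes of the block, and 43 to 280 when an array was left out. The 42 in the LH became 23, 2, 9, 56 (without the filter), 6, 65, 139, 10, 19 and 31, and 49 to 96 when an array was left out.

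The deviations of same-numbered arrays from their area means had a correlation of 0.097 over probes. With 2 arrays an area, this value cannot decide whether replicate numbers pair the arrays. The replicate block left 0 calls in either direction. Without scaling the median over all probes moved from 0.01 to 0.33 (log2), and values near 0 changed sign: *Slc17a6* 0.19, *Gad1* 0.047, *Slc32a1* 0.055, peptide precursors 0.12, astrocyte genes 0.037, ependymal and tanycyte genes 0.17, neuronal genes 0.078 and housekeeping genes 0.041. With 1 array left out, *Slc17a6* ran from −0.45 to 0.19 (positive without DMH1 and, at 0.06, without LH1), *Slc32a1* from −0.58 to 0.045 (positive without LH2), peptide precursors from −0.28 to 0.062 (positive without LH2), and ependymal and tanycyte genes from −0.33 to 0.29 (positive without DMH1 and, at 0.22, without LH1). Beyond these, 17 of 320 list medians changed sign, all of the 5 lists of fast transmitters, transcription factors, leptomeningeal, Arc, and zona incerta and thalamus genes, whose medians were at most 0.17 in size. The others kept their direction, as did 2007 of 2013 values of the 132 named or listed probes. The cause was not tested.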

Other observations

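*Oxt*, the oxytocin precursor, had a scaled signal of 20.2 and 28.8 on the DMH arrays, 116 on LH1 and 8883 on LH2, and was not tested because it was not measured on both arrays of an area. *Cnih4*, a cargo receptor of the secretory pathway, had 1433 and 2250 in the DMH and 2368 on LH2 but 39129 on LH1, so its 11.3-fold ratio of means rests on LH1.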
